A study of Homo sapiens with 24 samples.

Results

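The AP-1 and EGR immediate early genes were followed through all 24 libraries of an RNA-seq study of the zinc finger factors ZFX and ZNF593. The 10 genes, FOS, FOSB, FOSL1, FOSL2, JUN, JUNB, JUND, EGR1, EGR2 and EGR3, were picked by symbol among the 58721 gene identifiers of the deposited counts. All 10 had enough reads to be tested in both cell lines. LN-229, an established human glioblastoma line without an engineered change in its labels, gave 15 libraries: 3 each for siControl (control siRNA), siZFX (knockdown of ZFX), siZNF593 (knockdown of ZNF593), the double knockdown siZFX_siZNF593 (siRNAs to both genes) and siControl_2 (a separate control series). The treatment label does not tell siControl from siControl_2, and the pairing of siControl_2 with the double knockdown comes from file naming alone. The 10 genes are therefore plotted, and their calls counted, against each control set, with values against both printed for part of them. The remaining 9 libraries are of 293T, a human embryonic kidney line. All of them are DKO cells, with ZFX and its paralog ZNF711 knocked out, and 3 each were transfected with pCMV6 (empty vector), wtZFX (wild-type ZFX carrying a FLAG tag) or ZFX12_13 (a second FLAG construct, where the series speaks of mutant ZFX and the labels do not say what 12_13 stands for). The number of DKO clones, the siRNA doses and the times were not given in the sources used here. Replicates are described as biological, but nothing states that they were separate cultures, so p-values measure only the spread between these libraries, which may be technical.

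Immediate early genes are transcribed within minutes of growth factor, stress or calcium signals, without new protein synthesis. AP-1 is a dimer of leucine zipper proteins: FOS, FOSB, FOSL1 and FOSL2 must pair with a JUN protein to bind DNA, while JUN, JUNB and JUND can also pair among themselves. EGR1, EGR2 and EGR3 are zinc finger factors that bind GC-rich sites and are held in check by the corepressors NAB1 and NAB2. Signals through the ERK kinases reach FOS and EGR1 largely through SRF, which binds CArG boxes in their promoters together with ETS-family ternary complex factors. FOSL1 is also held up by ERK and AP-1 themselves and is often abundant in transformed cells.

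Promoter windows of 4 genes that changed are printed to show how differently the members begin. They are the RefSeq windows of GRCh38.p14 from 250 bases before to 50 after the start site, read 5′ to 3′ on the gene's strand. Capitals mark matches to the searched motifs. RefSeq windows were found for 8 of the 10 genes, all but FOSL1 and EGR3. EGR1 is at chr5:138465229-138465528 on the forward strand, FOS at chr14:75278578-75278877 on the forward strand, JUN at chr1:58783998-58784297 on the reverse strand and the first of 3 windows of EGR2 at chr10:62819118-62819417 on the reverse strand.
EGR1: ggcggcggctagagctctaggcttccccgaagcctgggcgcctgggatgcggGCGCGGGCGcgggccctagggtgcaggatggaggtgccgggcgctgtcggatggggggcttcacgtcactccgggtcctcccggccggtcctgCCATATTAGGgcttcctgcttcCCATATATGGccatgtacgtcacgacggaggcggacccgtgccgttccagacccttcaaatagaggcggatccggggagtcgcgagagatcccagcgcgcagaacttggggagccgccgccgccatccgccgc
FOS: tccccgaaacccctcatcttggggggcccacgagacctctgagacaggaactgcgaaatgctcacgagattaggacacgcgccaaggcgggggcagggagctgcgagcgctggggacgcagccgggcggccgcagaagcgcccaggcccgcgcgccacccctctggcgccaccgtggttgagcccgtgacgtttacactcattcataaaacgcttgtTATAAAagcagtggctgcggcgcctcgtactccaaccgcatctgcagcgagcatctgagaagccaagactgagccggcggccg
JUN: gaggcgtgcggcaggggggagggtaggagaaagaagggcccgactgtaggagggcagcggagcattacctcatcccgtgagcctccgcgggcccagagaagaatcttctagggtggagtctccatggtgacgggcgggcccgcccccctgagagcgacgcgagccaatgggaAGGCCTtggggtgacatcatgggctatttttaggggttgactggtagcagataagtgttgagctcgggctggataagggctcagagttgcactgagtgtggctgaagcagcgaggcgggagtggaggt
EGR2: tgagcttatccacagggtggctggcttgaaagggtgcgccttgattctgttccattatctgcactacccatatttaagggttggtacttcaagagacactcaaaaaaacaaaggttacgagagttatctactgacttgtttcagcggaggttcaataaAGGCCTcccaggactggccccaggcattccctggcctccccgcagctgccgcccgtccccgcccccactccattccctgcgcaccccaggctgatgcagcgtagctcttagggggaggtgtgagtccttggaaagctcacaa
The EGR1 window held 2 CArG boxes, which begin 105 and 83 bases before the start site, and 1 EGR site (GCGNGGGCG) that begins 198 bases before it. A CArG box was found in 1.29% of 35116 promoter windows of the same length, and the EGR site in 9.43%. In FOS the capitals mark a TATAAA box 33 bases before the start, a motif held by 11.5% of windows. The FOS window held no CArG box, but sites more than 250 bases before the start were not searched, so this does not show that FOS lacks one. JUN and the first EGR2 window each held AGGCCT, the core of the published ZFX motif, which 10.9% of windows hold. No other window found for the members held it, so the 4 printed windows do not stand for the rest. Both strands were searched, and TGACGTCA, TGANTCA and AGGCCT read the same on each. Of the other members, JUND held the CRE TGACGTCA (1.85% of windows), FOSL2 the AP-1 site TGANTCA (7.71%), and FOSB the ETS site CCGGAA (17.2%). FOSB and JUNB also held TATAAA. Of the other EGR2 windows, window 2 held an EGR site and window 3 a CArG box. A match is a description of these letters and shows no binding.

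Between 16223239 and 30159260 reads per library were assigned to genes. The tests covered 17684 genes for LN-229 and 19376 for the DKO line. ZFX stood at 45.7 to 55.1 CPM (read counts scaled to a common library size) in siControl, at 12.7 to 19.7 in siZFX and at 24.1 to 28.6 in the double knockdown. In DKO cells ZFX stood at 217 to 235 CPM with the empty vector and at 14582 CPM or more with either construct, and since the sources used here do not say where the gene was disrupted, the reads with the empty vector do not check the knockout. ZNF593 had 0 unstranded counts in every library. From both stranded columns summed it had 31.3 to 39.6 CPM in siControl, siZFX and siControl_2, and 1.59 to 3.76 in siZNF593 and the double knockdown. Of 8 glial and mesenchymal markers, 6 averaged at least 5 CPM over the LN-229 libraries. In DKO cells 5 of the 8 did too, so this count does not mark LN-229, though their sum there was only 309.4 to 349.8 CPM. SOX9 and GFAP averaged under 5 CPM in LN-229, and SOX9 averaged 35.2 to 40.1 CPM in the DKO groups. GFAP varied by LN-229 group, at 1.43 to 2.99 CPM in the control libraries and 3.56 to 6.34 in siZNF593. It was at 5.92 to 8.102 CPM in siZFX and 7.76 to 8.77 in the double knockdown. The summed glial list ran from 5042 to 5436 CPM over the control libraries and from 3967 to 4064 in siZFX. It ran from 3265 to 3285 in siZNF593 and from 3586 to 3645 in the double knockdown. The sum hides moves of single genes. In siControl, siControl_2 and siZFX, CSPG4 averaged 301, 665 and 71.9 CPM and SOX10 1274, 1332 and 683. NES averaged 1084, 814 and 803 and S100B 362, 564 and 279. Between the control sets 2 of the 8 were called higher and 1 lower, beside 10.3% of all genes called. With siZFX 1 was higher and 4 lower, beside 30.9%. The part of this list in the changes below was not tested. All 6 markers of 293T averaged at least 5 CPM over the DKO libraries, but PAX2 averaged 2.08 CPM with the empty vector, 12.5 with wtZFX and 8.68 with ZFX12_13. Markers of blood, endothelial and epithelial cells (PTPRC, CD14, CD3E, PECAM1, CDH5 and EPCAM) summed to at most 2.82 CPM in any LN-229 library and 8.23 in any DKO library, with 4 of 6 under 1 CPM in every LN-229 library. In bulk RNA, fewer cells with a transcript and less transcript per cell cannot be told apart.

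The FOS and JUN families had a different make-up in the 2 lines. Per kilobase of exon, FOSL1 made up 94.9% ± 0.356 (SD, n = 3) of the FOS family in siControl and 10.5% ± 1.99 with pCMV6 in DKO cells. FOS made up 1.56% ± 0.322 and 43.2% ± 1.36, and FOSB 0.0863% ± 0.0188 and 21.4% ± 0.603. In the JUN family, JUN and JUND were near each other in siControl, at 45.9% ± 1.24 and 42.8% ± 2.11, whereas JUN held 73.8% ± 1.06 with pCMV6. EGR1 led the EGR family in both lines, at 88.9% ± 0.321 and 89.4% ± 0.743. The lines were fitted apart and differ in more than the treatment, so no test was made between them.

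**Figure D1:**
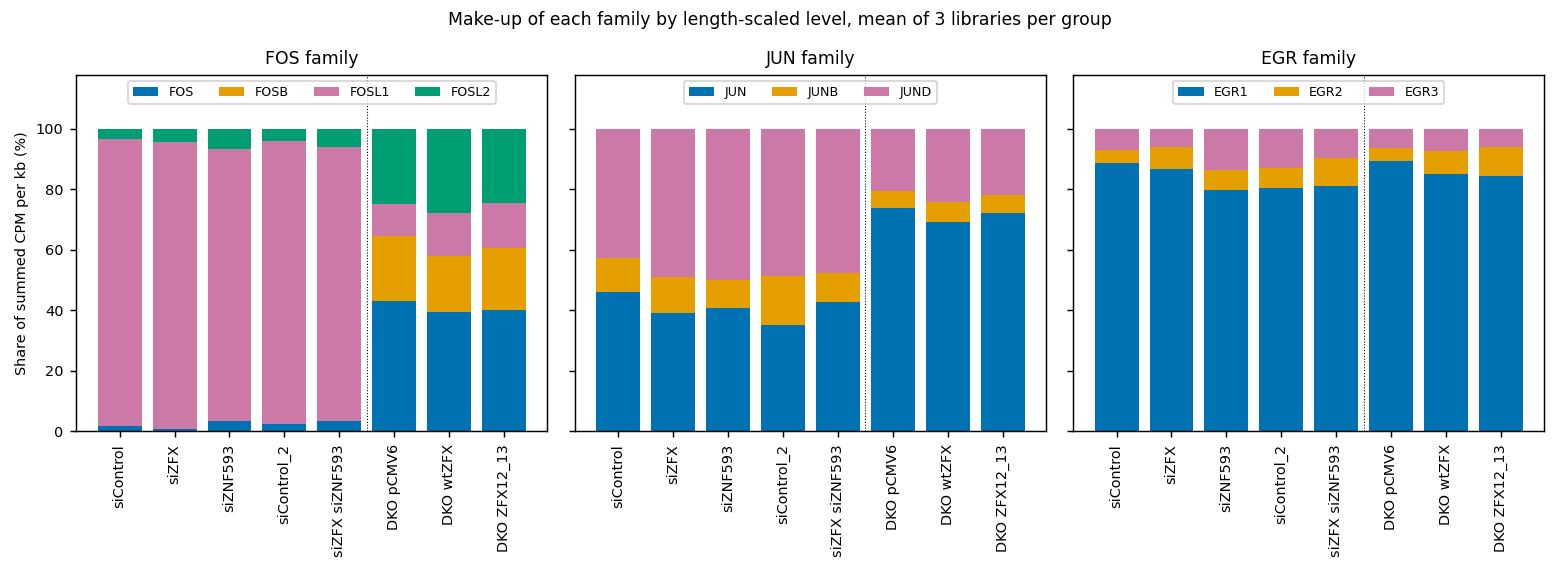
Stacked bars give each gene's share (%, linear axis) of its family's summed CPM per kilobase of exon, as the mean of 3 libraries, for the 5 LN-229 groups left of the dotted line and the 3 DKO groups right of it. FOSL1 fills 89.8% to 94.9% of the FOS family in LN-229 and 10.5% to 14.97% in DKO cells.

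In LN-229, FOS fell with the ZFX siRNA and FOSL2 rose. In GRCh38 with GENCODE 29, FOS lies at chr14:75278774-75282230, FOSB at chr19:45467995-45475179, FOSL1 at chr11:65892049-65900573 on the reverse strand and FOSL2 at chr2:28392448-28417312. FOS, the founding partner of JUN in AP-1, was at 5.44, 6.52 and 6.28 CPM in the siZFX libraries and at 13.4, 14.2 and 9.78 in siControl. The siControl_2 libraries, at 13.4, 13.1 and 11.7 CPM, lay in the same range as siControl, and no control library reached down to the siZFX range. The log2 change of FOS was -1.04 (SE 0.16, 2.05-fold lower, edgeR adjusted p = 3.36e-05) against siControl and -1.07 (adjusted p = 1.93e-05) against siControl_2. FOSL1, the FOS-family member most abundant in LN-229, was at 506, 489.8 and 502 CPM with siZFX and at 446, 429.7 and 453 in siControl. Those groups did not overlap, yet the log2 change of 0.17 (SE 0.18) was not called (adjusted p = 0.54). Fitted on the 6 libraries of the contrast alone, FOSL1 was called, at 0.16 (adjusted p = 0.00189). FOSL2, a FOS relative with slower kinetics, was at 82.2, 93.6 and 86.6 CPM against 62.8, 60.5 and 62.5 and rose by 0.50 (SE 0.09, adjusted p = 0.000225). FOSB stayed between 1.03 and 1.71 CPM in both groups, with a log2 change of 0.34 (SE 0.38, adjusted p = 0.565). Against siControl_2 FOSL1 rose by 0.76 (SE 0.18, adjusted p = 0.00599) and FOSL2 by 0.90 (SE 0.10, adjusted p = 7.41e-08).

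JUND and JUNB rose with siZFX against siControl. All 3 JUN genes have a single exon, JUN at chr1:58780788-58784327 and JUND at chr19:18279760-18281622 on the reverse strand, and JUNB at chr19:12791496-12793315. JUND, the JUN protein that is broadly present in resting cells, was at 177, 181 and 149 CPM with siZFX and at 105, 103 and 111 in siControl. The groups did not overlap and JUND rose by 0.67 on the log2 scale (SE 0.16, adjusted p = 0.00569). JUNB, which often opposes JUN in transcription, was at 40.9, 43.3 and 36.3 CPM against 27.0, 30.1 and 25.2, a rise of 0.55 (SE 0.15, adjusted p = 0.00784). The rise of JUNB rests on the control set, since siControl_2 was at 45.3, 37.0 and 35.9 CPM and the change against it was 0.03 (adjusted p = 0.911). JUN itself was at 248, 277 and 245 CPM against 212, 227 and 209.8, without overlap, and its change of 0.25 (SE 0.09) missed the threshold (adjusted p = 0.0505). Against siControl_2 the change of JUN was 0.60 (SE 0.09, adjusted p = 2.47e-05), and that of JUND was 0.45 (SE 0.16, adjusted p = 0.0395).

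EGR3 showed the largest fall of the 10 genes with siZFX. EGR1 lies at chr5:138465490-138469315 and EGR2 at chr10:62811996-62919900 on the reverse strand, while EGR3 is on chromosome 8. EGR3, a factor that is itself induced by calcium and antigen-receptor signals, was at 9.07, 8.001 and 7.45 CPM with siZFX and at 26.8, 26.5 and 28.8 in siControl. The siControl_2 libraries were at 26.1, 25.1 and 25.3 CPM, so both control sets lay about as far above siZFX. The log2 change was -1.74 (SE 0.13, 3.35-fold lower, adjusted p = 3.93e-10) against siControl and -1.64 (SE 0.13, adjusted p = 5.32e-10) against siControl_2. EGR1, the most abundant EGR gene, was at 59.9, 115 and 79.1 CPM with siZFX and at 221, 218 and 224 in siControl, a change of -1.38 (SE 0.25, adjusted p = 0.0014). Against siControl_2, which overlapped siZFX, the change of EGR1 was -0.30 (SE 0.25) and was not called (adjusted p = 0.393). EGR2, a regulator of myelination, was at 6.86, 12.1 and 6.98 CPM against 10.9, 12.2 and 11.9, with a change of -0.44 (SE 0.20, adjusted p = 0.1). Without siZFX replicate 2, the library with the highest EGR1 and EGR2 of its group, the change of EGR2 was -0.76 (adjusted p = 0.00428). With all libraries, the change of EGR2 against siControl_2 was -0.25 (SE 0.20, adjusted p = 0.371).

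With siZFX, then, 3 of the 10 genes were called higher and 3 lower, where 13.8% of all tested genes were called higher and 17.1% lower (30.9% together). The median log2 change of the 10 was 0.21, against 0.02 over all genes. Against siControl_2, 5 genes were called higher (FOSB, FOSL1, FOSL2, JUN and JUND) and 2 lower (FOS and EGR3), where 17.9% of all genes were higher and 20% lower (37.9% together). The comparisons share the siZFX libraries. FOSB, at 0.37 to 0.80 CPM in siControl_2, differed by 1.30 there (SE 0.42, adjusted p = 0.0164). The JUNB and EGR3 values carry a limit of counting. JUNB shares 259 of its 1820 exonic bases with HOOK2 on the opposite strand, and reads there were left out of the unstranded count, so both strands summed gave 1.52 times the reads of JUNB. EGR3 shares 164 exonic bases with AC055854.1 and gave 1.15 times the reads. The siZFX calls of both genes held with the strands summed.

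**Figure D2:**
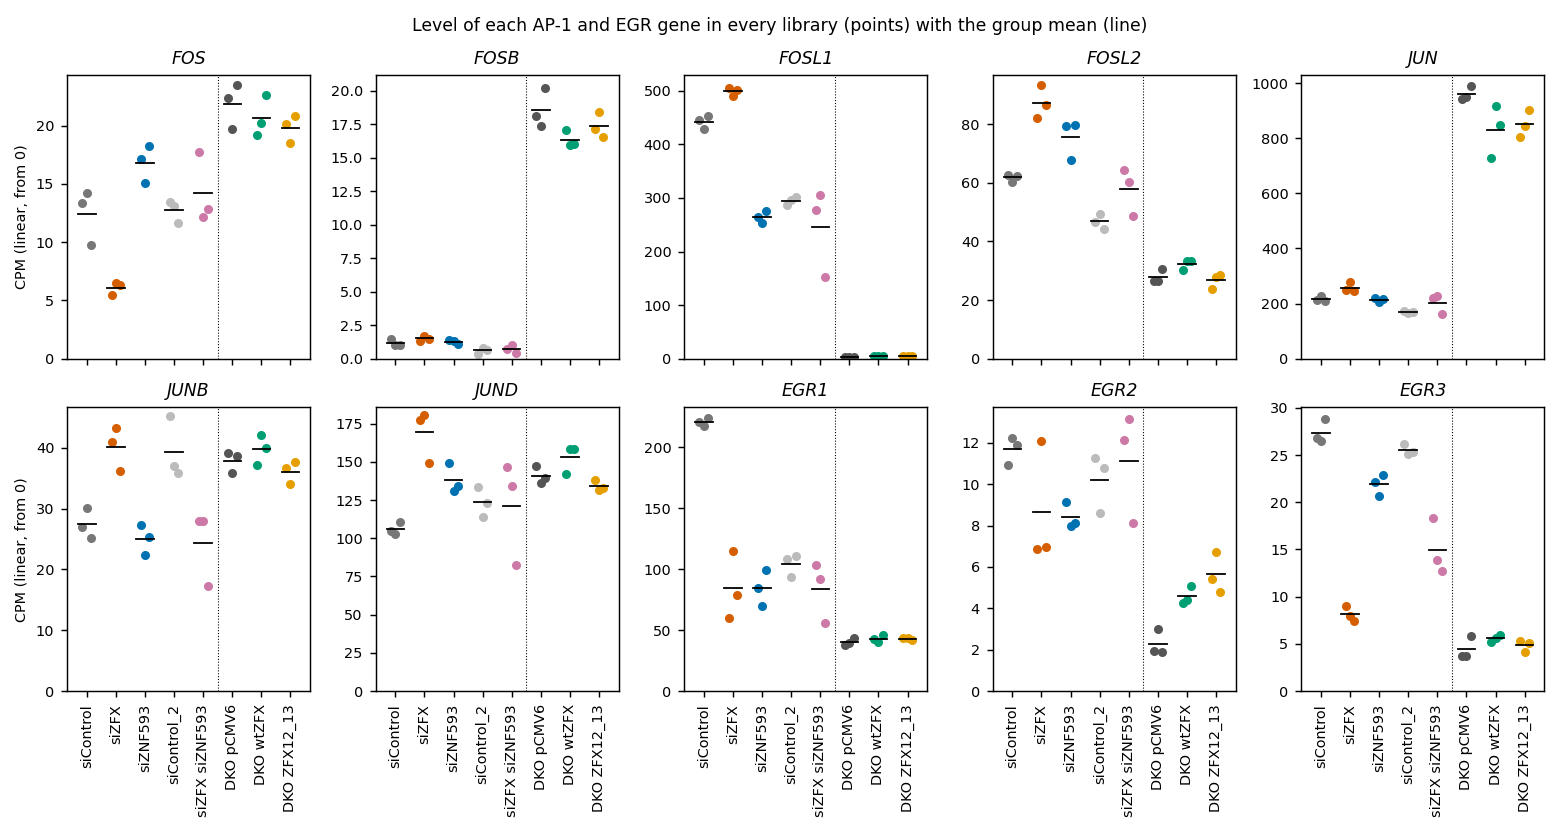
Each panel plots the CPM of 1 gene (linear axis from 0) in each of the 24 libraries as points, with a line at the mean of the 3 libraries of a group. EGR1 is highest in siControl, at 218 to 224 CPM, and the other LN-229 libraries sit between 56.2 and 115, while EGR3 and FOS are lowest in siZFX.

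With the ZNF593 siRNA EGR1 was low against siControl, as it was with siZFX, but FOSL1 was also low and FOS was not. EGR1 was at 84.3, 70.3 and 99.4 CPM with siZNF593, all below siControl, with a log2 change of -1.38 (SE 0.25, adjusted p = 0.00181). FOSL1 was at 264, 253.9 and 275 CPM, also below every siControl library, with a change of -0.74 (SE 0.18, 1.67-fold lower, adjusted p = 0.0102). Both calls rest on the control set. The siControl_2 libraries held EGR1 at 108, 94.0 and 111 CPM and FOSL1 at 286, 297 and 302. Against them EGR1 changed by -0.30 (adjusted p = 0.414) with overlapping groups. FOSL1 changed by -0.16 (SE 0.18, adjusted p = 0.57), though every siZNF593 library lay below every siControl_2 library.

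FOS was at 17.2, 15.04 and 18.2 CPM with siZNF593 and rose by 0.43 (SE 0.16, adjusted p = 0.0449) against siControl. The call was narrow: the change against siControl_2 was 0.40 (adjusted p = 0.059), and leaving out 1 library (siControl replicate 1 or 3, or siZNF593 replicate 1 or 3) gave 0.28 to 0.48 with adjusted p from 0.0639 to 0.234. FOSL2 was at 79.6, 67.8 and 79.9 CPM and rose by 0.29 (SE 0.09, adjusted p = 0.0241) against siControl, a call lost without any siControl library or siZNF593 replicate 1 or 3 (0.23 to 0.29, adjusted p from 0.0562 to 0.135), and by 0.69 (SE 0.10, adjusted p = 5.45e-06) against siControl_2. EGR3, at 22.2, 20.6 and 22.9 CPM, lay below both control sets without overlap. Its fall of 0.32 on the log2 scale (adjusted p = 0.0482) was lost when any library of the contrast was left out, with adjusted p from 0.0539 to 0.142, and against siControl_2 (-0.22, adjusted p = 0.177). JUNB was called only against siControl_2, where its change was -0.65 (SE 0.15, adjusted p = 0.00257). JUN changed by -0.02 against siControl and by 0.34 (adjusted p = 0.00847) against siControl_2. In all, 2 genes were called higher and 3 lower against siControl, where 12.2% of all genes were higher and 14.6% lower (26.8% together), and the median change of the 10 was -0.07. Against siControl_2, 2 were higher and 1 lower, beside 14.2% and 16.4% of all genes (30.6% together).

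The siZFX and siZNF593 libraries were also compared directly, without any control library. FOS was 2.76-fold lower with siZFX than with siZNF593 (log2 -1.47, SE 0.17, adjusted p = 1.83e-07), and EGR3 was 2.68-fold lower (log2 -1.42, SE 0.13, adjusted p = 5.66e-09). In the other direction, the siZFX libraries held more FOSL1, by 1.89-fold (log2 0.92, SE 0.18, adjusted p = 0.00166), more JUNB, by 1.60-fold (log2 0.68, SE 0.15, adjusted p = 0.00119), and more JUN, by 1.20-fold (log2 0.26, SE 0.09, adjusted p = 0.03). These are 3 genes higher and 2 lower, where 19.8% of all genes were higher and 20.7% lower (40.5% together). JUN was lost without siZFX replicate 2 (0.21, adjusted p = 0.123), siZNF593 replicate 2 (0.22, adjusted p = 0.0997) or siZNF593 replicate 3 (0.27, adjusted p = 0.0503). EGR1 differed by 0.00026 on the log2 scale with an SE of 0.25, which does not show that its level was the same.

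The 2 control sets differed in some of these genes. EGR1 was 2.11-fold lower in siControl_2 than in siControl (log2 -1.08, SE 0.25, adjusted p = 0.0183). FOSL2 was lower by -0.40 (SE 0.09, adjusted p = 0.00672) and JUN by -0.36 (SE 0.09, adjusted p = 0.0163), while JUNB was higher by 0.52 (SE 0.15, adjusted p = 0.0292). These are 1 gene higher and 3 lower, where 5.43% of all genes were higher and 4.88% lower (10.3% together). FOSL1 differed by -0.59 (SE 0.18) without overlap and was not called in the shared fit (adjusted p = 0.0674). It was called when only these 2 sets were fitted (-0.59, edgeR adjusted p = 6.85e-10) and by DESeq2 (-0.58, adjusted p = 0.00159). The SD of FOSL1 was 11.8 CPM in siControl, 7.86 in siControl_2 and 82.0 in the double knockdown, which the shared fit included. The part of that spread in the SE of FOSL1 was not tested. EGR1 lost its call when siControl replicate 1 or 3 or siControl_2 replicate 1 or 2 was left out, with changes of -1.11 to -1.02 and adjusted p from 0.0502 to 0.0683. Without 1 library JUN (siControl replicate 2) changed by -0.33 (adjusted p = 0.0585), and JUNB (siControl replicate 1 or 3, or siControl_2 replicate 1) by 0.41 to 0.50 (adjusted p from 0.0827 to 0.127). FOS and EGR3 changed by 0.03 (SE 0.16) and -0.10 (SE 0.12) between the control sets.

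In the double knockdown EGR3 fell and JUNB fell. EGR3 was at 18.3, 13.9 and 12.7 CPM, below both control sets and above siZFX, with a log2 change of -0.77 (SE 0.12, 1.71-fold lower, adjusted p = 2.42e-05) against siControl_2 and -0.87 (SE 0.12, adjusted p = 4.17e-06) against siControl. JUNB was at 27.9, 27.9 and 17.2 CPM and fell by 0.69 (SE 0.15, adjusted p = 0.00111) against siControl_2, but its change against siControl was -0.17 (adjusted p = 0.388). FOSL2 rose by 0.30 (SE 0.10, adjusted p = 0.0142) and JUN by 0.26 (SE 0.09, adjusted p = 0.0322) against siControl_2, with overlapping groups, and both changes were slightly below 0 against siControl (-0.10 and -0.09). JUN also lost its call without siControl_2 replicate 2 or 3, or double knockdown replicate 1 or 2 (0.19 to 0.27, adjusted p from 0.0517 to 0.125), and FOSL2 without double knockdown replicate 1 (0.24, adjusted p = 0.0532). FOS was at 17.7, 12.1 and 12.9 CPM, within or above the range of the controls, with a change of 0.16 (SE 0.16, adjusted p = 0.452). So 2 genes were called higher and 2 lower, where 17.6% of all genes were higher and 20.6% lower (38.2% together), with a median change of 0.05. Against siControl, 0 were higher and 3 lower (EGR1, at -1.39, FOSL1, at -0.85, and EGR3), beside 18.7% and 22% of all genes (40.7% together).

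Double knockdown replicate 3 stood apart. It held EGR1 at 56.2, FOSL1 at 152, JUND at 82.5, JUN at 160 and FOSL2 at 48.6 CPM, where the other 2 replicates held 92.3 and 104, 278 and 306, 134 and 147, 220.4 and 228, and 60.5 and 64.4. Its unmapped share was 3.17% of reads, where the other 2 had 1.97% and 2.03%, and its share of reads in several genes 9.64%, the lowest of the 15 LN-229 libraries. The part of these shares in its values was not tested. With GC and length offsets, JUND, whose transcript has the highest GC content of the 10, changed by 0.47 (adjusted p = 0.000246) in the double knockdown. Without double knockdown replicate 3 JUND changed by 0.19 (adjusted p = 0.0332) in place of -0.03, and 5 members were called against siControl_2.

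**Figure D3:**
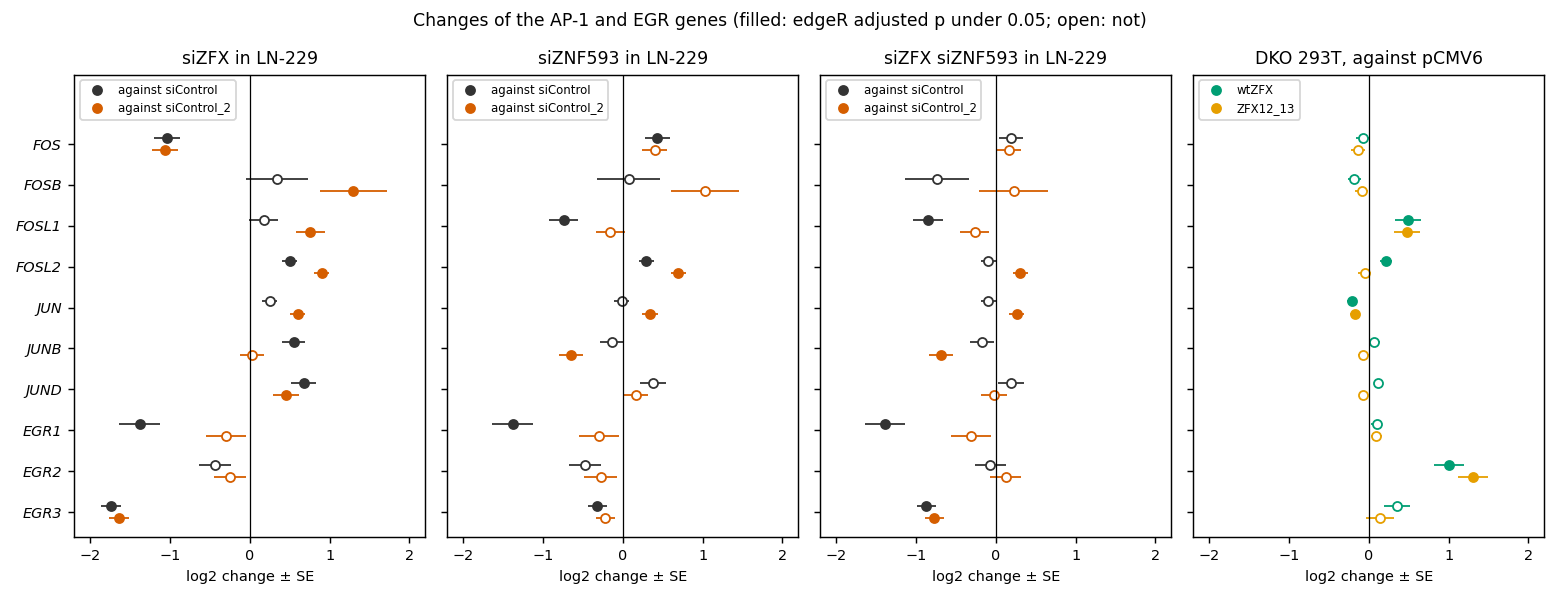
Points give the log2 change (linear axis) of each gene with its standard error as a bar, filled where the edgeR adjusted p is under 0.05. The first 3 panels set each LN-229 knockdown against both control sets and the last sets both constructs against pCMV6 in DKO cells. FOS and EGR3 lie to the left with siZFX against either set, while EGR1 is called only against siControl.

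The tests of the differences between knockdown effects gave FOS, EGR3 and JUNB as genes whose response to siZFX differed from that to the double knockdown. The FOS effect was 1.20 higher on the log2 scale in the double knockdown (SE 0.23, adjusted p = 0.000596) and the EGR3 effect 0.97 higher (SE 0.17, adjusted p = 0.000317). The JUNB effect was lower, at -1.24 (SE 0.21, adjusted p = 0.000318), as was that of JUND, at -0.70 (SE 0.23, adjusted p = 0.0499). JUND lost its call without any 1 library among 8 of the 12, with changes of -0.74 to -0.63 and adjusted p from 0.0551 to 0.106. These are 2 genes higher and 2 lower, where 8.76% of all genes were higher and 8.97% lower (17.7% together). EGR1 and EGR2 joined them without siZFX replicate 2 (1.37, adjusted p = 0.0101, and 0.90, adjusted p = 0.0169) or double knockdown replicate 3 (1.30, adjusted p = 0.0134, and 0.76, adjusted p = 0.0116). The remaining ZFX also differed between these groups, with 12.7 to 19.7 CPM in siZFX and 24.1 to 28.6 in the double knockdown, and its part in these differences was not tested.

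Between the double knockdown and siZNF593 effects, edgeR called 0 of the 10 genes, where 7.97% of all genes were higher and 8.6% lower (16.6% together). At an unadjusted p under 0.05 there were 5, but the share of all genes at that threshold was not counted. DESeq2 called 1, EGR1. The shares of all genes called by DESeq2 and without single libraries are not given here. The effect of EGR3 differed by -0.45 (SE 0.17, adjusted p = 0.0755) and that of EGR1 by 1.07 (SE 0.35, adjusted p = 0.0647). Without double knockdown replicate 3 there were 4 calls: FOSL1 (0.74, adjusted p = 2.79e-10), JUN (0.43, adjusted p = 8.77e-05), EGR1 (1.30, adjusted p = 0.0139) and EGR2 (0.79, adjusted p = 0.00892). Without replicate 1 the calls were JUNB (-0.64, adjusted p = 0.0332) and EGR3 (-0.59, adjusted p = 0.00919), and without replicate 2 JUNB (-0.65, adjusted p = 0.0379).

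The double knockdown effect was also set against the sum of the single effects, each on its own control set. ZFX itself changed by -1.66 with siZFX and by -1.01 in the double knockdown. The part of that difference in the remainders was not tested. The remainder was above 0 for EGR1 (2.45, SE 0.49, adjusted p = 0.0136) and EGR3 (1.30, SE 0.24, adjusted p = 0.0014), and below 0 for JUNB (-1.11, SE 0.30, adjusted p = 0.0346), which makes 2 genes higher and 1 lower, where 3.85% of all genes were higher and 1.81% lower (5.65% together). EGR3 kept its call under every alternative, while EGR1 was at 0.93 (adjusted p = 0.28) with all 6 control libraries as 1 group. JUNB was at -0.31 (adjusted p = 0.492) there and lost its call without any 1 of 7 libraries (siControl 1 or 3, siZFX 1 or 2, siZNF593 1 or 3, siControl_2 1), at -1.07 to -0.98 with adjusted p from 0.0543 to 0.119. Without double knockdown replicate 3, FOS (0.85), FOSL1 (0.57), JUND (-0.85) and EGR2 (1.23) were called as well. JUND was also called without double knockdown replicate 1 (-1.21) and EGR2 without siZFX replicate 2 (1.38).

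In DKO cells EGR2 was the member that rose most with ZFX. It was at 1.94, 3.00 and 1.91 CPM with the empty vector, at 4.26, 4.38 and 5.09 with wtZFX and at 5.42, 6.73 and 4.80 with ZFX12_13. Each construct lay above every vector library. The log2 rise was 1.003 with wtZFX (SE 0.19, adjusted p = 0.000125) and 1.30 with ZFX12_13 (2.47-fold, SE 0.19, adjusted p = 5.74e-06). FOSL1 was at 4.26, 4.48 and 4.30 CPM with wtZFX and 4.18, 3.92 and 4.86 with ZFX12_13, against 3.39, 3.28 and 2.57 with the vector. It rose by 0.49 (SE 0.16, adjusted p = 0.0149) and 0.48 (SE 0.16, adjusted p = 0.0244), and both calls were lost without pCMV6 replicate 3 (0.38, adjusted p = 0.0916, and 0.37, adjusted p = 0.127). With ZFX12_13 the FOSL1 call was also lost without ZFX12_13 replicate 3 (0.39, adjusted p = 0.113). DESeq2 did not call FOSL1 either, with adjusted p of 0.0519 and 0.0835.

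JUN, the most abundant of the 10 genes in these cells, was at 941, 951 and 990.2 CPM with the vector, at 729.8, 916 and 847 with wtZFX and at 804, 845 and 904 with ZFX12_13. The changes were small, at -0.21 (SE 0.06, adjusted p = 0.0102) and -0.18 (SE 0.06, adjusted p = 0.0333). The call with wtZFX was lost without wtZFX replicate 1 (-0.12, adjusted p = 0.108) or pCMV6 replicate 3 (-0.19, adjusted p = 0.0506), and the call with ZFX12_13 without any 1 of 5 of its 6 libraries (-0.19 to -0.14, adjusted p from 0.0598 to 0.326). FOSL2 rose with wtZFX by 0.22 (SE 0.08, adjusted p = 0.0299) with overlapping groups, a call lost without wtZFX replicate 2 or 3 or pCMV6 replicate 1 or 2 (0.18 to 0.20, adjusted p from 0.0843 to 0.137), and it changed by -0.05 (adjusted p = 0.661) with ZFX12_13. FOS stayed at 18.5 to 23.5 CPM in all 9 libraries and EGR1 at 37.9 to 46.4. EGR3, at 3.70 to 5.92 CPM, changed by 0.35 (SE 0.16, adjusted p = 0.0878) with wtZFX, and by 0.59 (adjusted p = 0.00705) without pCMV6 replicate 3, its highest vector library. JUND with wtZFX was called without wtZFX replicate 1 (0.17, adjusted p = 0.0219) in place of 0.12 (adjusted p = 0.0737). In total, 3 genes were higher and 1 lower with wtZFX, where 23.2% of all genes were higher and 19.2% lower (42.3% together). With ZFX12_13, 2 were higher and 1 lower, beside 20.9% and 15.7% of all genes (36.6% together). The 2 comparisons share the vector libraries. With GC and length offsets, JUND changed by -0.43 (adjusted p = 1.87e-09) and JUNB by -0.27 (adjusted p = 0.000385) with wtZFX, both the other way.

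The 2 constructs differed in FOSL2 and JUND. FOSL2 was at 30.1, 33.3 and 33.3 CPM with wtZFX and at 23.9, 27.8 and 28.6 with ZFX12_13, a difference of -0.27 (SE 0.08, adjusted p = 0.0191). JUND was at 142, 159 and 158 CPM and at 138, 132 and 133, a difference of -0.19 (SE 0.05, adjusted p = 0.0136). These are 0 genes higher and 2 lower, where 9.73% of all genes were higher and 10.6% lower (20.4% together). FOSL2 was lost without wtZFX replicate 2 or 3 or ZFX12_13 replicate 1 (-0.25 to -0.19, adjusted p from 0.058 to 0.0837), and JUND without wtZFX replicate 2 or 3 or ZFX12_13 replicate 2 (-0.17 to -0.16, adjusted p from 0.0539 to 0.0881). EGR2 did not pass the test between the constructs (0.30, SE 0.17, adjusted p = 0.239).

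The regulators of these genes were read from lists written for this pathway. SRF, which drives FOS and EGR1 through CArG boxes, fell by 0.95 on the log2 scale with siZFX (SE 0.26, adjusted p = 0.0133) and by 0.94 in the double knockdown (SE 0.26, adjusted p = 0.0117), and its changes against the other control set were -0.96 and -0.93. In the double knockdown SRF lost its call when only the libraries compared were fitted (-0.92, adjusted p = 0.0508). ELK4, a ternary complex factor, fell with siZFX by 0.60 (SE 0.09, adjusted p = 2.53e-05) and changed by -0.43 in the double knockdown. ELK3, a related factor, changed by 0.30 and 0.26, a call lost in the double knockdown with GC and length offsets. The coactivator gene MRTFA changed by 0.57 with siZFX, lost without siControl replicate 2, and CREB1, which acts at CRE sites, by -0.35 in the double knockdown. Of the 7 genes of the SRF list, 2 were higher and 2 lower with siZFX, and 2 higher and 3 lower in the double knockdown, where 30.9% and 38.2% of all genes were called. With siZNF593 edgeR called 0 of the 7, beside 26.8% of all genes. In DKO cells SRF was higher by 0.15 (adjusted p = 0.0254) with wtZFX and 0.22 (adjusted p = 0.00177) with ZFX12_13, changes that turned to -0.13 and -0.01 with GC and length offsets. With wtZFX, SRF was also lost without wtZFX replicate 1 or pCMV6 replicate 1 or 2, with upper-quartile factors or with no filter. With ZFX12_13, MRTFB changed by -0.47 and ELK4 by -0.22, the latter lost with GC and length offsets and in the larger stranded column.

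The EGR corepressors fell in all 3 knockdowns. NAB2 changed by -0.71 (SE 0.17, adjusted p = 0.00431) with siZFX, -0.57 (SE 0.17, adjusted p = 0.0189) with siZNF593 and -0.48 (SE 0.17, adjusted p = 0.0337) in the double knockdown. NAB1 changed by -0.25, -0.64 and -0.49, with adjusted p of 0.0113, 7.49e-07 and 1.37e-05. All 6 calls held against the other control set, but NAB2 was lost without siZNF593 replicate 2, and in the double knockdown without siControl_2 replicate 1 or 2, with GC and length offsets (-0.18, adjusted p = 0.0781) and when only the libraries compared were fitted (-0.46, adjusted p = 0.106). NAB1 was lost with siZFX without siZFX replicate 2, and its difference of 0.26 between the control sets was lost without 5 of the 6 control libraries in turn. EGR4, a neuronal relative of the 3 EGR genes, had too few reads to be tested in LN-229 and rose in DKO cells by 0.65 (SE 0.20, adjusted p = 0.0115) with wtZFX and 0.76 (SE 0.21, adjusted p = 0.00493) with ZFX12_13. Both calls were lost with GC and length offsets (0.24, adjusted p = 0.372, and 0.39, adjusted p = 0.147), and with wtZFX also in the larger stranded column (0.69, adjusted p = 0.0723). NAB2 changed by 0.24 with ZFX12_13 and by -0.03 with those offsets, and also lost its call in the larger stranded column and without pCMV6 replicate 2. Of this list of 3, both genes tested in LN-229 were called in each knockdown, beside 26.8% to 38.2% of all genes.

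Among other AP-1 partners, 3 of 6 tested genes were higher with siZFX against siControl: ATF7 by 0.56 (adjusted p = 0.00011), ATF3 by 0.41 (adjusted p = 0.00946) and ATF2 by 0.33 (adjusted p = 0.00805). Of all genes 30.9% were called there. Only ATF7 of these was called against siControl_2, and ATF3 changed by -0.11 there. Without siControl replicate 3, ATF3 (0.33, adjusted p = 0.0609) and ATF2 (0.29, adjusted p = 0.0518) lost their calls, and ATF2 also did in the larger stranded column (0.20, adjusted p = 0.159). ATF3, a stress-induced repressor, rose by 1.09 (SE 0.12, adjusted p = 2.17e-07) with siZNF593, and by 0.56 against siControl_2, and differed by 0.53 between the control sets. ATF7 changed by 0.33 with siZNF593, lost with no filter and without siControl replicate 2 or siZNF593 replicate 2, and by 0.35 in the double knockdown, lost without siControl_2 replicate 2. In DKO cells ATF2 changed by -0.34 with wtZFX and -0.33 with ZFX12_13. JDP2 changed by 0.66 and BATF2 by 0.58 with ZFX12_13, BATF2 losing its call in the larger stranded column. ATF3 changed by -0.18 with wtZFX, a call lost with GC and length offsets, in the larger stranded column and without wtZFX replicate 1 or pCMV6 replicate 3.

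Among 11 kinases and ligases acting on JUN and FOS, MAPK9, which encodes the JUN kinase JNK2, fell by 1.33 (SE 0.11, adjusted p = 3.71e-09) with siZFX and by 0.77 (SE 0.11, adjusted p = 6.28e-06) in the double knockdown. MAPK9 rose by 0.58 (SE 0.05, adjusted p = 9.95e-10) with wtZFX and 0.45 (SE 0.05, adjusted p = 1.25e-07) with ZFX12_13. MAP2K4, a kinase upstream of JNK, changed by -0.76 (adjusted p = 6.84e-05) with siZFX, 0.61 (adjusted p = 3.83e-08) with wtZFX and 0.70 (adjusted p = 5.15e-09) with ZFX12_13. DET1, part of a ligase that degrades JUN, changed by 0.87 with siZFX, 1.06 with siZNF593 and 1.23 in the double knockdown, with adjusted p of 0.0243, 0.008 and 0.00206. With siZFX DET1 lost its call with no filter, in the larger stranded column and without any 1 of the 3 siControl libraries or siZFX replicate 2 or 3, and with siZNF593 without siZNF593 replicate 1. MAPK8, the gene of JNK1, changed by 0.73 in the double knockdown, where MAP2K4 changed by -0.42 (adjusted p = 0.0118). That MAP2K4 call was lost when only the libraries compared were fitted and without siControl_2 replicate 1 or double knockdown replicate 1. MAPK3, the gene of ERK1, changed by 0.38 with siZFX and by 0.14 (adjusted p = 0.225) against siControl_2. MAP2K1 changed by -0.27 with siZNF593 and by -0.04 (adjusted p = 0.811) against siControl_2, its call also being lost without siControl replicate 2 or siZNF593 replicate 2 or 3. FBXW7, a JUN ligase gene, changed by 0.34 with siZNF593, lost without siZNF593 replicate 3. In DKO cells FBXW7 changed by -0.46 with wtZFX and -0.34 with ZFX12_13, and MAP2K7 by -0.24 with wtZFX. The list had 3 higher and 2 lower with siZFX, 2 and 1 with siZNF593, 3 and 2 in the double knockdown, 2 and 3 with wtZFX, and 2 and 1 with ZFX12_13, where 30.9%, 26.8%, 38.2%, 42.3% and 36.6% of all genes were called.

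**Figure D4:**
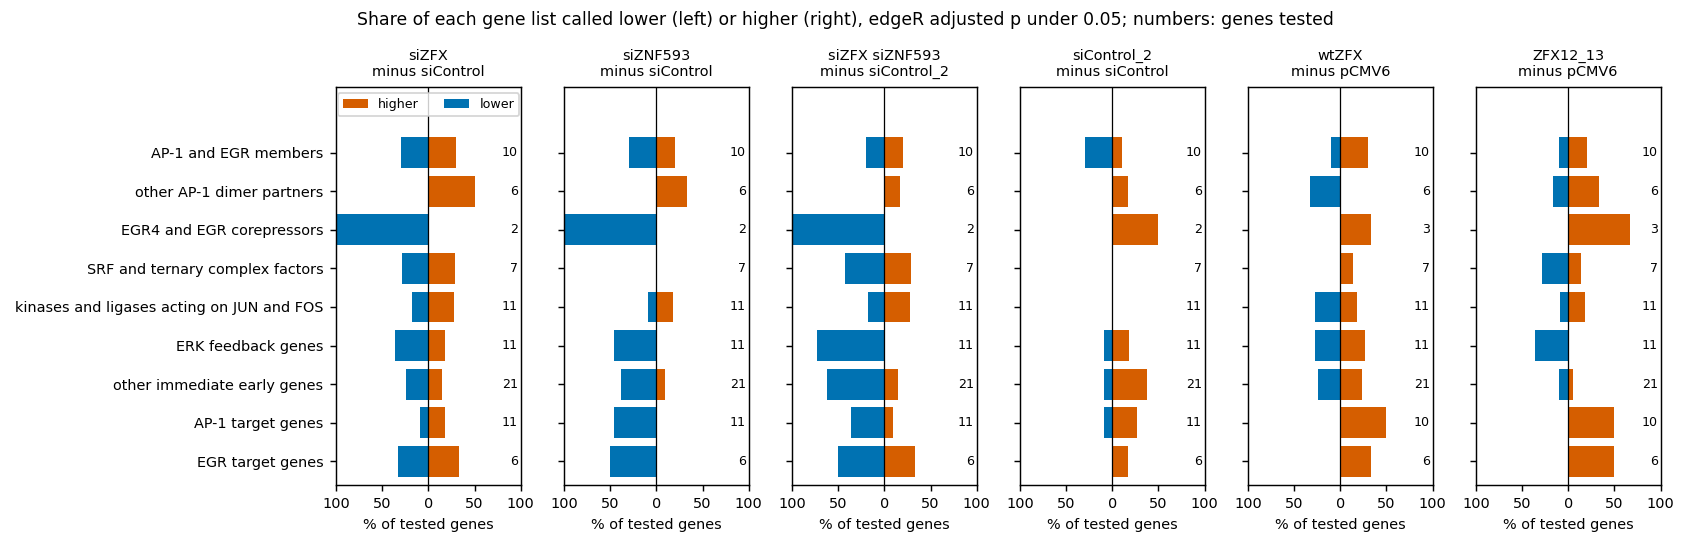
Bars give the percentage of the tested genes of each list that were called higher (right of 0) or lower (left of 0) at an edgeR adjusted p under 0.05, with the number of genes tested printed at the right of each panel. In the double knockdown 13 of 21 other immediate early genes and 8 of 11 ERK feedback genes lie on the lower side, where 20.6% of all genes were called lower.

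Of 21 other immediate early genes, 3 were higher and 5 lower with siZFX, 2 higher and 8 lower with siZNF593, and 3 higher and 13 lower in the double knockdown, with list medians of 0.00058, -0.20 and -0.49 beside 0.02, 0.02 and 0.0060 over all genes. Of all genes, 17.1%, 14.6% and 20.6% were called lower. Against siControl the double knockdown had 4 higher and 9 lower, where 22.0% of all genes were called lower. The orphan receptor genes NR4A1 and NR4A3 changed by -1.31 (SE 0.15, adjusted p = 1.33e-06) and -1.02 (SE 0.36, adjusted p = 0.035) with siZFX. NR4A1 kept its call against siControl_2, at -2.64, while NR4A3 lost it without siControl replicate 1 or 3 or siZFX replicate 1 or 2. NR4A3 and NR4A1 changed in the double knockdown by -1.998 and -1.80, and against siControl by -0.85 (adjusted p = 0.0582) and -0.48 (adjusted p = 0.0126). ARC changed by -1.31 (adjusted p = 0.0204) with siZFX and by -0.29 (adjusted p = 0.657) against siControl_2, and also lost its call in the larger stranded column and without siControl replicate 3 or siZFX replicate 1 or 3. CCN2, a matricellular protein gene, changed by -0.65 with siZFX and by -0.25 against siControl_2. KLF2, a zinc finger factor gene, changed by -1.03 (adjusted p = 0.0129) with siZNF593, by -0.57 (adjusted p = 0.172) against siControl_2, and by -1.57 (adjusted p = 0.000521) in the double knockdown. Its siZNF593 call was also lost without siControl replicate 2. Between the control sets 8 of the 21 were higher in siControl_2 and 2 lower, where 5.43% and 4.88% of all genes were, with NR4A1 up by 1.32 (SE 0.14, adjusted p = 2.33e-06), NR4A2 by 1.05, IER3 by 0.72 and NR4A3 by 1.15. The NR4A3 call between the sets was lost in the larger stranded column and without either of replicates 2 and 3 of siControl or 1 and 2 of siControl_2. IER3, an ERK-responsive survival gene, changed by -1.44 (SE 0.17, adjusted p = 6.27e-06) with siZNF593 and BTG2, an antiproliferative p53 target, by 1.31 (SE 0.16, adjusted p = 1.64e-06). Against siControl_2 these were -2.15 and 0.79. IER2 changed by -0.79 with siZNF593, lost in the larger stranded column (-0.70, adjusted p = 0.05). IER3 changed by -0.995 in the double knockdown and, against siControl, by -0.28 (adjusted p = 0.186). Without double knockdown replicate 3 the double knockdown counts were 3 higher and 11 lower. In DKO cells KLF2 rose by 1.76 (SE 0.16, adjusted p = 2.84e-09) with ZFX12_13, and by 0.64 (adjusted p = 0.00368) with wtZFX, lost with GC and length offsets (0.28) and in the larger stranded column (0.61). ZFP36, ARC and GADD45B changed by 0.45, 0.41 and 0.30 with wtZFX, ARC turning to -0.06 and GADD45B losing its call with those offsets. KLF6 and ZFP36L1 changed by -0.19 and -0.18 with ZFX12_13. KLF6 lost its call in the larger stranded column and without pCMV6 replicate 1 or 2, and ZFP36L1 without pCMV6 replicate 2 or 3 or ZFX12_13 replicate 2.

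The ERK feedback genes, phosphatases and Sprouty inhibitors that ERK signalling induces, had 2 higher and 4 lower of 11 with siZFX, 0 and 5 with siZNF593 and 0 and 8 in the double knockdown (6 lower without its replicate 3). Of all genes 17.1%, 14.6% and 20.6% were called lower in these comparisons. Against siControl the double knockdown had 1 higher and 5 lower, where 18.7% of all genes were higher and 22% lower. DUSP2, a nuclear ERK phosphatase gene, changed by -2.49 (SE 0.48, adjusted p = 0.000236) in the double knockdown and by -3.18 against siControl. With siZFX it changed by -1.14 (adjusted p = 0.0339), and by -0.45 (adjusted p = 0.429) against siControl_2, and lost its call in the larger stranded column and without siControl replicate 2 or 3 or any 1 siZFX library. SPRY4 changed by -1.56 (SE 0.08, adjusted p = 1.61e-12) and DUSP4 by -1.10 (SE 0.09, adjusted p = 3.92e-09) with siZNF593, and by -2.45 and -1.13 against siControl_2. SPRY4 changed by -1.07 in the double knockdown and, against siControl, by -0.18 (adjusted p = 0.07). SPRY2 and SPRED2 changed by -0.50 and -0.47 with siZNF593, and DUSP6 by -0.36 with siZFX. DUSP4 changed by 0.36 (adjusted p = 0.00375) with siZFX and by -1.03 (adjusted p = 8.1e-09) in the double knockdown. SPRY1 changed by 0.998 (adjusted p = 0.000757) with siZFX against siControl and by -0.14 (adjusted p = 0.649) against siControl_2. It changed by -1.25 in the double knockdown and, against siControl, by -0.12 (adjusted p = 0.706). Between the control sets SPRY1 differed by 1.13, SPRY4 by 0.89 and DUSP5 by -0.38, a DUSP5 call lost in the larger stranded column and without siControl replicate 2 or 3 or siControl_2 replicate 1 or 3. In DKO cells SPRY4 rose by 1.76 (SE 0.24, adjusted p = 2.26e-06) with wtZFX, where 3 of the 11 were higher and 3 lower, and with ZFX12_13 0 were higher and 4 lower. Of all genes 42.3% and 36.6% were called. DUSP4, DUSP5 and SPRY2 changed by 0.93, 0.52 and -0.32 with wtZFX. SPRED1, SPRY1, SPRED2 and SPRY2 changed by -0.41, -0.28, -0.26 and -0.24 with ZFX12_13, SPRED2 losing its call without pCMV6 replicate 3.

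Known AP-1 targets moved in both directions. CXCL8, a chemokine gene with an AP-1 site, changed by -1.36 (SE 0.15, adjusted p = 4.93e-07) with siZFX, -2.07 (SE 0.16, adjusted p = 3.86e-09) with siZNF593 and -4.41 (SE 0.16, adjusted p = 2.16e-13) in the double knockdown. It also differed by 1.64 (SE 0.14, adjusted p = 9.38e-08) between siControl_2 and siControl, and the double knockdown change against siControl was -2.77. Against siControl_2 CXCL8 changed by -3.00 with siZFX and -3.71 with siZNF593. With siZNF593, MT2A (-1.45), CD44 (-0.97, a gene that is also in the glial list) and CCND1 (-0.72, and -0.30 against siControl_2) were lower. Of 11 tested targets, 0 were called higher and 5 lower there, where 12.2% of all genes were higher and 14.6% lower (26.8% together). The list had 2 higher and 1 lower with siZFX, 1 and 4 in the double knockdown, 5 and 0 of 10 with wtZFX, and 5 and 0 with ZFX12_13, where HBEGF, an EGF receptor ligand, rose by 1.14 (SE 0.11, adjusted p = 5.58e-09). Of all genes 30.9%, 38.2%, 42.3% and 36.6% were called in these comparisons. Against siControl_2, siZFX gave 4 higher and 3 lower, where 37.9% of all genes were called. CCND1 changed by 0.49 with siZFX and by 0.90 against siControl_2, and MT2A by 0.37, lost with GC and length offsets and without siControl replicate 2 or siZFX replicate 2. In the double knockdown VEGFA, an angiogenic factor gene, changed by -0.67 (adjusted p = 3.91e-05), HBEGF by 0.60 and TIMP1 by -0.45, and against siControl by -0.95, 0.40 and -0.19. Between the control sets CCND1 differed by -0.42, PLAUR by 0.37 and TIMP1 by 0.26, the last lost without siControl replicate 1 or 3 or siControl_2 replicate 1 or 3. In DKO cells HBEGF, PLAUR, TIMP1 and CCND1 changed by 0.97, 0.75, 0.41 and 0.38 with wtZFX, and TIMP1 by 0.54 with ZFX12_13. CXCL8 (0.45) and PLAUR (0.34) were called with ZFX12_13 by edgeR and not by DESeq2, and each call was lost without pCMV6 replicate 1 or 2, among other alternatives.

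Of 6 EGR targets, PDGFA, a growth factor gene of glioma, was lower in all 3 knockdowns, by -0.42 (SE 0.09, adjusted p = 0.00076), -1.01 (SE 0.09, adjusted p = 1.03e-08) and -1.45 (SE 0.09, adjusted p = 2.78e-11). Against the other control set these were -1.12, -1.71 and -0.74, and PDGFA differed by 0.70 (SE 0.09, adjusted p = 5.79e-06) between the sets. Set against either control set alone, the siZNF593 change was the largest of the 3. In DKO cells PDGFA rose by 3.53 (SE 0.12, adjusted p = 1.85e-16) with wtZFX and 3.12 (SE 0.13, adjusted p = 2.63e-15) with ZFX12_13, and PDGFB by 2.81 (SE 0.16, adjusted p = 5.55e-13) and 1.90 (SE 0.18, adjusted p = 5.58e-09). In the same comparisons EGR1 changed by 0.10 (SE 0.07) and 0.09 (SE 0.07), and EGR2 by 1.003 (SE 0.19) and 1.30 (SE 0.19). EGR3 changed by 0.35 and 0.14 and EGR4 by 0.65 and 0.76. The part of these genes in the rises of PDGFA and PDGFB was not tested. The list had 2 higher and 2 lower with siZFX, 0 and 3 with siZNF593, 2 and 3 in the double knockdown, 2 and 0 with wtZFX and 3 and 0 with ZFX12_13, where 30.9%, 26.8%, 38.2%, 42.3% and 36.6% of all genes were called. With the control set exchanged, siZNF593 gave 1 higher and 3 lower and the double knockdown 0 and 3, beside 30.6% and 40.7% of all genes called. GDF15, a stress cytokine gene, changed by -0.54, -0.49 and -1.09 in the 3 knockdowns and by 0.965 with ZFX12_13. FN1, the fibronectin gene, changed by 0.34 with siZFX and -0.69 with siZNF593. TGFB1 changed by 0.54 with siZFX and by 0.87 against siControl_2. ID3 changed in the double knockdown by 0.44 and TGFB1 by 0.36, and against siControl by 0.07 (adjusted p = 0.711) and 0.02 (adjusted p = 0.908). This TGFB1 call was also lost in the larger stranded column, when only the libraries compared were fitted, and without siControl_2 replicate 2 or double knockdown replicate 1 or 2.

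The genes whose levels most resembled the members over the 15 LN-229 libraries were found by Pearson's r of log2 CPM among 10619 protein-coding genes, as a description with no test. WWP2, POMGNT1 and MFSD2A were most like EGR3 (r = 0.98 for each), and APBA1, ERBB3 and CPNE1 most like FOS (r = 0.95 for each). DDX23 was most like FOSL1 (r = 0.97), IFFO2 most like FOSL2 (r = 0.96), TGFB1 most like JUN (r = 0.96), RGS3 most like JUNB (r = 0.95) and PNKD most like JUND (r = 0.93). The likeness was weaker for EGR1, with TCF19 (r = 0.91), and for EGR2, with DRG2 (r = 0.82). The points share 5 groups of 3 libraries and are not independent.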

How the data were processed

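Total RNA from 24 cultured-cell libraries was sequenced, and reads fell evenly on both strands (50.1% to 50.7% on one). The deposited files hold raw read counts per gene and strand, and per the submitters' processing notes the authors used STAR, HTSeq and DESeq2 with hg38 (GRCh38), versions not given. All 58721 gene identifiers matched GENCODE 29. Summary lines that name no gene were left out of library sizes: unmapped reads (1.34% to 5.44%), multimapping reads (2.11% to 3.44%), reads outside genes (4.60% to 11.1%) and reads in several genes (9.49% to 11.1%).

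The unstranded counts were tested with edgeR 4.0.16 in R 4.3.3 (TMM factors, filterByExpr, robust quasi-likelihood fit, 1 coefficient per group), each cell line in a fit of its own. P-values were adjusted by Benjamini-Hochberg over all tested genes, and a gene was called at an adjusted p under 0.05. The SE is the log2 change divided by the square root of F. CPM are counts over TMM-scaled totals, and families were compared by CPM per kilobase of exon. The fit was tested on simulated counts, with a pass rule that was changed after a first run to leave out genes that the expression filter removed. No replicate pair agreed within sampling noise (chi-square per gene 1.60 to 48.7). Same-numbered libraries deviated together only weakly, so no pairing was used, but this does not show that they were unpaired.

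The 10 genes and the pathway and marker lists were chosen with earlier results of these data known. All members are named, with up to 4 called genes of each list by size of change, and the 3 genes of highest correlation. One gene each of the AP-1 target, kinase and EGR target lists is not reported here and was left out of the counts. Alternatives covered scaling, filters, fold, control set, strand column, GC and length offsets, replicate block, single libraries and DESeq2 1.42.0. Summing the strands and using siControl_2 for the single knockdowns were added after seeing the data. Figures used Python 3.11.15 with matplotlib 3.10.9.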

Additional observations from a re-analysis of the deposited data

Results flagged for a closer look

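The double knockdown effect differed from the sum of the single knockdown effects for 3 genes, by the edgeR test of that difference. The remainder was 2.45 for EGR1, 1.30 for EGR3 and -1.11 for JUNB on the log2 scale. Each single effect uses siControl and the double effect siControl_2, and EGR1 and JUNB also differed between those sets. With all 6 control libraries as 1 group the remainders of EGR1 and JUNB were 0.93 and -0.31 and neither was called. ZFX itself changed by -1.66 with siZFX and by -1.01 in the double knockdown, so the 2 knockdowns of ZFX were unequal. The parts of the control sets and of the remaining ZFX in these remainders, that of EGR3 included, were not tested. Groups of 3 libraries were not tested for an outlying library.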

How the results depend on the processing

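Of 40 calls among 110 member values, 14 held under every alternative run: FOS, JUND and EGR3 with siZFX, EGR3 in the double knockdown, EGR2 with each construct, FOS, FOSL1, JUNB and EGR3 between siZFX and siZNF593, FOS, JUNB and EGR3 between the double and siZFX effects, and EGR3 against additivity. Over 2200 alternative values, 1962 kept direction and call, 126 lost a call, 102 gained one and 10 reversed. For 138 values of pathway genes named by rule, 2500 alternatives gave 2287 that kept both, 207 that lost the call and 6 that reversed. Calls of at least 1.5-fold left 2 members with siZNF593, 2 in the double knockdown, 1 between control sets, 1 with wtZFX, 1 with ZFX12_13 and 0 between constructs. With siZNF593, siControl_2 as control gave 3 calls and all 6 controls 2. In the double knockdown, all 6 controls gave 2 and a fit of its own groups 2. Between the double and siZNF593 effects, 0 calls became 1 with no filter, 1 with a 1 CPM filter, 1 with strands summed, 1 with its own groups, 1 with DESeq2, 2 with siControl, 2 with all 6 controls and 4 with GC and length offsets. With siControl as the control of the double knockdown, its difference from siZFX gave 8 calls and additivity 6. With wtZFX, the larger stranded column and DESeq2 each gave 2, and with ZFX12_13 GC and length offsets gave 5. The share of all genes called under each alternative is not given beside these counts or those without 1 library. The counts therefore show how calls of the 10 genes moved, and not whether they moved more than other genes. The replicate block changed the double against siZNF593 count to 1 (JUNB) and added JUN with siZFX (0.25, adjusted p = 0.0386) and JUND against additivity (-1.08, adjusted p = 0.0479), changing no other member call. Same-numbered libraries correlated from -0.0896 to 0.0969 in LN-229, where 5 of 15 correlated best with their own number. In DKO cells they correlated from -0.0465 to 0.0430, and 5 of 9 did so. The medians for same and other numbers were 0.0062 and -0.0052 in LN-229 and 0.023 and -0.012 in DKO cells. Such weak correlations do not show whether the numbers pair the libraries.

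Leaving out 1 library gave 6 to 7 calls with siZFX, 2 to 4 with siZNF593, 2 to 5 in the double knockdown, 2 to 4 between control sets, 4 to 5 between siZFX and siZNF593, 0 to 4 and 3 to 6 for the double against the siZNF593 and siZFX effects, 2 to 7 against additivity, 3 to 4 with wtZFX, 1 to 2 with ZFX12_13 and 0 to 2 between constructs. Directions reversed with siControl_2 for JUN with siZNF593 (0.34), ATF3 (-0.11) and SPRY1 (-0.14) with siZFX. With siControl they reversed in the double knockdown for FOSL2 (-0.10) and JUN (-0.093), for FOSL2 against siZNF593 (-0.39, and -0.39 with all 6) and for JUN against siZFX (-0.34). GC and length offsets reversed JUND in the double knockdown (0.47), and JUNB (-0.27), JUND (-0.43), SRF (-0.13) and ARC (-0.057) with wtZFX, and NAB2 (-0.027) and SRF (-0.014) with ZFX12_13. JUND in the double knockdown ranged from -0.17 without its replicate 1 to 0.19 without its replicate 3. With the control set exchanged, calls among AP-1 targets went from 3 to 7 (siZFX), among dimer partners from 3 to 1 (siZFX), 2 to 4 (siZNF593) and 1 to 2 (double), and among EGR targets from 5 to 3 (double). The cause was not tested. Depth limits FOSB most, at 0.37 to 1.71 CPM in LN-229.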
